A study of Saccharomyces cerevisiae with 26 samples.

Results

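Wild-type (wt) yeast cultures labelled as batch 4 were compared with wt cultures labelled as batch 1, by the level of each transcript (RNA-Seq) and by the ribosome-protected fragments on it (Ribo-Seq). The members were taken from the strain, batch and replicate in the sample titles, and 9 of the 26 libraries of the series qualified. RNA-Seq covered replicates 2 and 3 in batch 4 and replicates 1, 4 and 5 in batch 1, and Ribo-Seq covered replicates 2 and 3 in batch 4 and replicates 1 and 4 in batch 1. The other 17 libraries came from strains lacking GIR2 or PUB1. All wt cultures were BY4742, a MATalpha laboratory strain carrying his3Δ1, leu2Δ0, lys2Δ0 and ura3Δ0, grown in YPD at 30 °C to an optical density of 0.5 to 0.6. Every culture was ground in a buffer with cycloheximide and 1% Triton, and the lysate was cleared by spins at 3000 g and 20000 g. From the cleared lysate, poly(A) mRNA was purified on oligo(dT) for RNA-Seq, and monosomes were collected from a sucrose gradient after ribonuclease I treatment for Ribo-Seq. The labels do not say what distinguished a batch, so whatever differed between the batches cannot be told apart.

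In yeast, the signal recognition particle directs many ribosomes that translate signal sequences and transmembrane segments to the membrane of the endoplasmic reticulum (ER) while the protein is still being made. Tail-anchored proteins carry their membrane segment at the C-terminus and are inserted only after translation ends, and most mitochondrial proteins are made in the cytosol as precursors with an N-terminal targeting sequence and imported by the TOM and TIM complexes. Ribosome biogenesis factors assemble ribosomes in the nucleolus, and their genes commonly share the PAC and RRPE promoter motifs.

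The coding sequences of 4 genes show the hydrophobic stretches by which proteins were sorted here. A segment was a window of 19 residues whose mean Kyte-Doolittle hydropathy was at least 1.6. Each line gives 90 bases of coding sequence, 5′ to 3′ on the gene's own strand, from the RefSeq R64 genome. Capitals mark the codons of the most hydrophobic window, searched over the whole protein for SSO1 and among windows starting in the first 30 residues for the other genes. KAR2 encodes the Hsp70 chaperone of the ER lumen and has a cleaved signal sequence, TOM70 a receptor anchored in the mitochondrial outer membrane, CCW12 a cell wall mannoprotein, and SSO1 a tail-anchored SNARE of the plasma membrane.
KAR2, chrX:381342-381431, plus strand: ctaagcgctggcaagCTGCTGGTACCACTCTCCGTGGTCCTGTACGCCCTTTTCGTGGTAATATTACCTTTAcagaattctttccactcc
TOM70, chrXIV:400436-400525, minus strand: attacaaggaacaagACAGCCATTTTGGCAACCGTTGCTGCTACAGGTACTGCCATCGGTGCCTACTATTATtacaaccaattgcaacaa
CCW12, chrXII:370000-370089, minus strand: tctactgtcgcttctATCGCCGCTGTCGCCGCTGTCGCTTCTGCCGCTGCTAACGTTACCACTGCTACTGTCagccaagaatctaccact
SSO1, chrXVI:108055-108144, plus strand: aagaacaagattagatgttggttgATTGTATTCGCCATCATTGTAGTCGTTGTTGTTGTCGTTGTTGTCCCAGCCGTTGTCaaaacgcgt
The windows shown reach a mean hydropathy of 2.71 in KAR2, 1.07 in TOM70, 1.64 in CCW12 and 3.62 in SSO1. TOM70 therefore has no predicted segment although it is a membrane protein, and it was counted among the proteins without a segment.

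The wt libraries held 2217490 to 2917963 gene counts in RNA-Seq, and 2435124 and 2777294 (batch 1) against 1362346 and 1570853 (batch 4) in Ribo-Seq. Reads mapped to several places made up 41.7% and 42.9% of the Ribo-Seq reads in batch 1 and 53.6% and 61.2% in batch 4, against 6.95% to 8.36% in RNA-Seq, and their part in the results below was not tested. LEU2 and URA3 had 0 counts and LYS2 had 0 or 1 count in RNA-Seq, GIR2 and PUB1 were present in every library, and the MATalpha genes STE3 and MF(ALPHA)1 were present while MFA1 and MFA2 had at most 1 count. STE2, which was also checked as a gene near 0 in MATalpha cells, had 8 to 13 counts in RNA-Seq and 0 to 2 in Ribo-Seq. HIS3 kept 136 to 198 RNA-Seq counts although the genotype lists his3Δ1.

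Both assays called about as many genes, and more of them were lower than higher in batch 4. Of 4473 tested genes, 504 (11.3%) were higher and 899 (20.1%) lower in RNA-Seq, and 519 (11.6%) were higher and 907 (20.3%) lower in Ribo-Seq (edgeR quasi-likelihood test, Benjamini-Hochberg adjusted p under 0.05). Higher in both assays were 198 genes (4.43%), and lower in both were 701 (15.7%). Calls in RNA-Seq alone numbered 473 and calls in Ribo-Seq alone 496, and 31 genes were called in opposite directions. The higher calls depended on single libraries: without wt replicate 3, 119 genes were called higher in RNA-Seq, and without wt replicate 4, 107 were called higher in Ribo-Seq. Higher genes made up 35.9% of the RNA-Seq calls and 36.4% of the Ribo-Seq calls, but 23.0% and 25.7% with scaling factors computed on genes without a hydrophobic segment alone, and 46.1% in RNA-Seq with all strains in the fit. That scaling moved the median change of all genes by -0.06 (RNA-Seq) and -0.07 (Ribo-Seq) on the log2 scale, and no direction is read from a list median nearer to 0 than this.

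**Figure D1:**
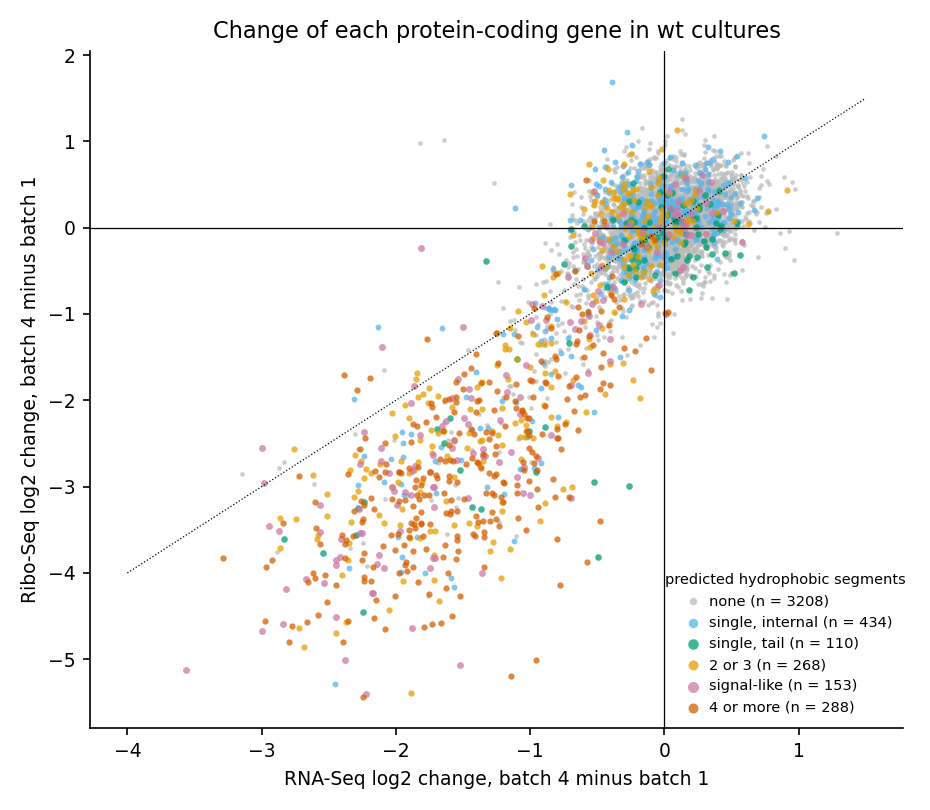
Log2 change of each protein-coding gene between wt cultures of batch 4 and batch 1, RNA-Seq on the horizontal axis and Ribo-Seq on the vertical axis, coloured by predicted hydrophobic segments. The dotted line marks equal change in both assays, and most of the 288 proteins with 4 or more segments lie below it at negative values while the 3208 proteins without a segment centre near 0.

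The share of lower genes differed with the number and place of the hydrophobic segments. Of 288 tested genes whose proteins have 4 or more segments, 269 were lower in RNA-Seq and 278 in Ribo-Seq, with medians of -1.49 and -2.85 on the log2 scale, while the medians over all genes were -0.03 and -0.01. Among 153 proteins with a single segment near the N-terminus, as in a signal sequence, 104 and 109 were lower, with medians of -1.18 and -1.97. Among 268 proteins with 2 or 3 segments, 167 and 149 were lower. These were 70.7% and 71.3% of the members that RefSeq places in the secretory pathway, and 44.8% and 23% of the others. Among 434 proteins with a single internal segment, 100 (23%) and 79 (18.2%) were lower, with medians of -0.13 and 0.05. Among 110 proteins with a single segment in the last 50 residues, 21 (19.1%) were lower in RNA-Seq and 30 (27.3%) in Ribo-Seq, against 20.1% and 20.3% over all genes, and the medians were -0.09 and -0.16. The 3208 proteins without a segment had 238 and 261 lower genes (119 to 314 and 127 to 375 without 1 library) and medians of 0.04 and 0.06. In the RNA-Seq libraries the class with 4 or more segments held 4.87% to 5.08% of the counts in batch 1 and 1.61% and 1.75% in batch 4. In Ribo-Seq it held 3.96% and 4.10% against 0.560% and 0.637%.

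KAR2 (YJL034W, chromosome X 381327 to 383375) illustrates the size of the fall. It stood at 871, 973 and 866 normalised CPM (counts divided by the total of the library after TMM scaling, per 1000000) in RNA-Seq of batch 1 and at 134 and 91.3 in batch 4. In Ribo-Seq it stood at 1016 and 982 against 40.5 and 37.8, so the batches were far from overlapping in either assay. Its log2 change was -3.00 in RNA-Seq (SE 0.15, edgeR adjusted p 2.5e-14) and -4.67 in Ribo-Seq (SE 0.11, edgeR adjusted p 2.1e-11). The difference between the assays, Ribo-Seq minus RNA-Seq in the joint fit, was -1.53 (SE 0.23, edgeR adjusted p 0.00016 for the difference). CPS1, a vacuolar carboxypeptidase, was lower still, with log2 changes of -3.57 in RNA-Seq and -5.12 in Ribo-Seq. Pairs of changes are given in that order from here on. LAS21, a glycosylphosphatidylinositol (GPI) anchor synthesis enzyme of the ER, fell by 2.24 in RNA-Seq (SE 0.18, edgeR adjusted p 1.5e-11), and its Ribo-Seq counts were 183 and 139 in batch 1 against 1 and 3 in batch 4. COS6, of the subtelomeric DUP380 family whose members share sequence and whose counts are therefore uncertain, and DCR2, a phosphoesterase, likewise kept at most 1 Ribo-Seq count per library in batch 4. No fold is given for such genes. In all, 32 tested genes had at most 3 Ribo-Seq counts in each batch 4 library.

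The ER lumen chaperones and oxidases were lower in 14 of 15 members in each assay (medians -1.86 and -2.65), and amino acid and peptide permeases in 18 of 18 (-1.32 and -2.96). The lower shares over all tested genes were 20.1% and 20.3%. The GPI-anchored and cell wall proteins were divided. Of 44 tested members, 25 were lower in RNA-Seq and 35 in Ribo-Seq, among them YGP1, a secreted glycoprotein, at -2.38 and -5.00, and the glucanosyltransferases GAS5 and GAS1. On the other side CCW12 stood at 4954, 6271 and 4710 normalised CPM in RNA-Seq of batch 1 and at 6719 and 7249 in batch 4. In Ribo-Seq CCW12 stood at 7843 and 8368 against 9438 and 8916. The batches did not overlap for CCW12, which rose by 0.40 in RNA-Seq (SE 0.13, edgeR adjusted p 0.023), while its Ribo-Seq change was 0.18 (SE 0.05, edgeR adjusted p 0.019). Of the glucan-linked wall proteins with internal repeats, PIR1, HSP150 and CIS3 were higher in RNA-Seq and lower in Ribo-Seq, PIR1 by 0.58 and -0.49.

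Among 19 tail-anchored SNAREs, the membrane fusion proteins, 1 was higher and none lower in RNA-Seq, and 1 was higher and 1 lower in Ribo-Seq (medians 0.02 and -0.10). All tested genes were 11.3% higher and 20.1% lower in RNA-Seq, and 11.6% and 20.3% in Ribo-Seq. SSO1 stood at 160.0, 180.2 and 183 normalised CPM in RNA-Seq of batch 1 and at 186 and 168 in batch 4, and at 124 and 125 against 123 and 109 in Ribo-Seq. Its RNA-Seq levels overlapped between the batches, and its changes of 0.02 (SE 0.12) and -0.10 (SE 0.13) were not called in either assay. In Ribo-Seq UFE1, the SNARE of the ER, rose by 0.60 and NYV1, a vacuolar SNARE, fell by 0.57, and SEC22 was higher in RNA-Seq by 0.42 (edgeR adjusted p 0.043, 0.0064 and 0.0091).

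**Figure D2:**
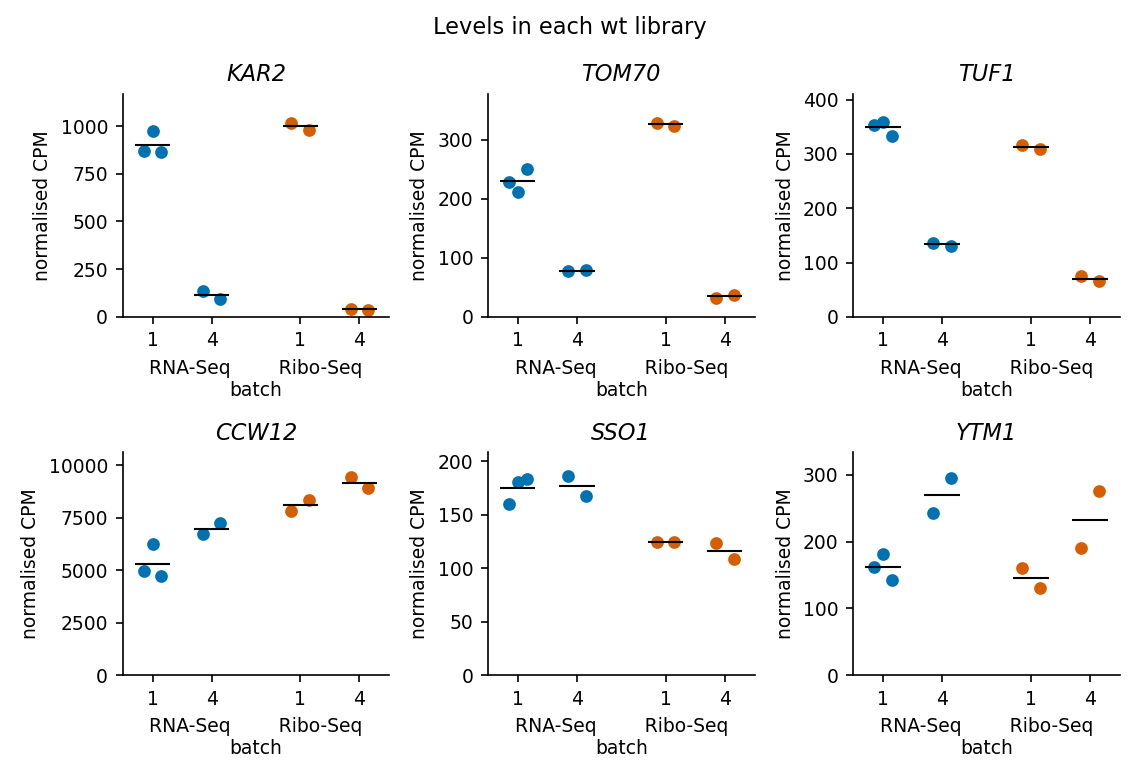
Normalised CPM of KAR2, TOM70, TUF1, CCW12, SSO1 and YTM1 in each of the 9 wt libraries, by assay and batch, with points for libraries and bars for group means on axes that start at 0. KAR2, TOM70 and TUF1 were lower in every batch 4 library, CCW12 and YTM1 were higher, and the SSO1 levels lay side by side.

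Subunits of the same complex did not all move together. SEC61, the channel subunit of the ER translocon, was lower at -2.24 and -4.04, with 379 and 363 normalised CPM in Ribo-Seq of batch 1 and 20.6 and 24.1 in batch 4. Its small tail-anchored partners SSS1 and SBH1 were not called, with changes of 0.02 and 0.09 in RNA-Seq and of 0.14 and 0.07 in Ribo-Seq. SEC63, an accessory subunit, was lower at -2.40 and -4.02. In the vacuolar ATPase, which acidifies the vacuole, 5 of 7 members of the membrane sector were lower in both assays, VPH1 at -1.49 and -1.69, while VMA6, the member without a segment, was higher in Ribo-Seq by 0.40 (edgeR adjusted p 0.0047). VMA9, a proteolipid of 73 residues, changed by -0.03 and 0.06 and was not called. Of 10 members of the soluble sector, 1 was higher and 1 lower in RNA-Seq, and 2 were higher in Ribo-Seq. SRP54, the subunit of the signal recognition particle that binds signal sequences, was higher in RNA-Seq by 0.45 and not called in Ribo-Seq at -0.04.

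The nuclear pore was divided as well. Of 48 nucleoporins and karyopherins, 5 were higher and 6 lower in RNA-Seq, and 20 were higher and 6 lower in Ribo-Seq. The lower share was 12.5% in each assay, below the 20.1% and 20.3% over all genes, of which 11.3% and 11.6% were higher. Among the 35 members without a segment, 4 were higher and 2 lower in RNA-Seq, and 12 were higher and 3 lower in Ribo-Seq. The 3 genes lower in both assays were NDC1, POM152 and POM34, which encode the membrane proteins that anchor the pore, at -1.93, -1.97 and -1.02 in RNA-Seq and -3.91, -3.44 and -2.42 in Ribo-Seq. Among those higher in Ribo-Seq were the exportin CSE1, at 0.57, and the scaffold nucleoporin NUP192, at 0.85, and neither was called in RNA-Seq. The number higher in Ribo-Seq ranged from 6 to 24 when 1 library was left out.

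Ergosterol synthesis, the sterol pathway, was divided, with higher and lower genes among both early and late steps. Of 24 tested genes, 5 were higher and 10 lower in RNA-Seq, and 5 were higher and 11 lower in Ribo-Seq, where 0 to 7 were higher without 1 library. The lower shares were 41.7% and 45.8%, against 20.1% and 20.3% over all genes, of which 11.3% and 11.6% were higher. ERG4, the reductase of the last step, was lower at -3.29 and -3.83, and ERG11, the lanosterol demethylase, at -2.42 and -3.82. HMG1, the membrane-bound HMG-CoA reductase, was lower at -1.80 and -3.57, while ERG13, the soluble synthase that acts just before it, rose by 0.54 and 0.35 (SE 0.12 and 0.08, edgeR adjusted p 0.00067 and 0.0029). The soluble methyltransferase ERG6 rose by 0.35 and 0.28. ERG1, the squalene epoxidase, has 2 predicted segments, and stood at 356, 392 and 308 normalised CPM in RNA-Seq of batch 1 and at 592 and 612 in batch 4. The batches did not overlap, and ERG1 rose by 0.78 in RNA-Seq (SE 0.12, edgeR adjusted p 6.2e-06) but was not called in Ribo-Seq, at 0.19. ERG25, a methyl sterol oxidase without a predicted segment, was lower at -1.99 in RNA-Seq (SE 0.13, edgeR adjusted p 4.0e-13). Its Ribo-Seq level went from 511 and 478 normalised CPM in batch 1 to 52.3 and 54.8 in batch 4.

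**Figure D3:**
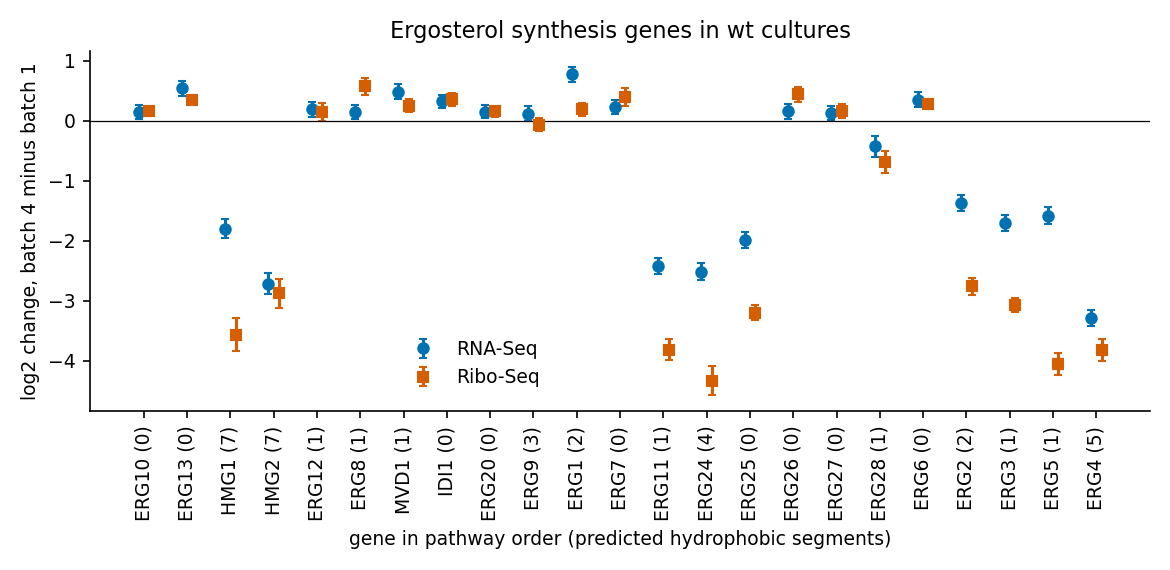
Log2 change between batches of 23 ergosterol synthesis genes in pathway order, with the number of predicted hydrophobic segments in parentheses and bars of 1 SE, RNA-Seq as circles and Ribo-Seq as squares. HMG1, HMG2, ERG11, ERG24, ERG25, ERG2, ERG3, ERG5 and ERG4 lie below -1 in both assays, and ERG13, IDI1 and ERG6 lie above 0 and were called in both.

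Beyond membrane and secreted proteins, some mitochondrial proteins were lower. RefSeq records place 600 tested proteins without a predicted segment in mitochondria and not in the secretory pathway. Of these, 38 were higher and 100 lower in RNA-Seq, 47 higher and 100 lower in Ribo-Seq, and 61 were lower in both. Over all 4473 tested genes, 701 (15.7%) were lower in both. The share of lower genes, 16.7% in each assay, was below the 20.1% and 20.3% over all genes, which include the membrane proteins. It was above the 7.42% and 8.14% over all proteins without a segment. Among proteins without a segment, 36 of 362 placed in the secretory pathway and 13 of 2246 placed in neither compartment were lower in both. Of the 61 mitochondrial genes, 57 were among the 323 proteins with over 350 residues, and 4 among the 277 with up to 350 residues, a length limit chosen after the values were seen. Most of the genes lower in both were long in the other places too, 27 of the 36 secretory genes and 12 of the 13 in neither. Between 47 and 59 of the 61 were lower in both assays when 1 library was left out, 36 with DESeq2 and 27 in the test against a 1.5-fold change.

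TOM70 (YNL121C, chromosome XIV 398684 to 400537), the receptor whose anchor is shown above, stood at 228, 211 and 251 normalised CPM in RNA-Seq of batch 1 and at 77.5 and 79.5 in batch 4. In Ribo-Seq it stood at 329 and 324 against 32.4 and 36.5, so both batches were clearly apart. The TOM70 change was -1.55 in RNA-Seq (SE 0.13, edgeR adjusted p 3.0e-11) and -3.24 in Ribo-Seq (SE 0.14, edgeR adjusted p 2.1e-09). Its paralog TOM71 changed by -1.22 and -2.26, and NDE1, an NADH dehydrogenase on the outer face of the inner membrane, by -1.54 and -3.13. Several of the 61 are thus membrane proteins that the segment rule missed, NCP1 and MGM1 among them, and NCP1, the P450 reductase, is best known from the ER.

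Some soluble matrix proteins were lower too. RefSeq places 65 proteins without a segment in the matrix. Of these, 9 were lower and 6 higher in RNA-Seq, and 13 were lower and 5 higher in Ribo-Seq. The lower ones made up 13.8% and 20%, no more than the 20.1% and 20.3% over all genes. Over all proteins without a segment, 7.42% and 8.14% were lower. TUF1 (YOR187W, chromosome XV 684030 to 685343), the mitochondrial translation elongation factor, stood at 353, 359 and 334 normalised CPM in RNA-Seq of batch 1 and at 136 and 131 in batch 4. In Ribo-Seq it stood at 316 and 308 against 74.5 and 65.2, again without overlap. The TUF1 changes were -1.38 (SE 0.12, edgeR adjusted p 7.9e-11) and -2.16 (SE 0.13, edgeR adjusted p 2.4e-08). LEU4 and LEU9, the isopropylmalate synthases of leucine synthesis, were lower as well, LEU4 at -1.64 and -2.25 and LEU9 at -1.13 and -1.92. The methionyl-tRNA synthetase of mitochondria, MSM1, was at -0.94 and -1.11, and its isocitrate dehydrogenase IDP1 at -0.86 and -0.92, and both were called lower in each assay.

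The isozymes of serine hydroxymethyltransferase, which makes one-carbon units, moved in opposite directions. SHM1, the mitochondrial form, stood at 326, 361 and 292 normalised CPM in RNA-Seq of batch 1 and at 189 and 187 in batch 4, and fell by 0.79 (SE 0.12, edgeR adjusted p 3.8e-06). SHM2, the cytosolic form, stood at 839, 949 and 800.5 against 1254 and 1296, and rose by 0.56 (SE 0.12, edgeR adjusted p 0.00038). In Ribo-Seq SHM1 fell by 1.13 and SHM2 rose by 0.28, and the batches did not overlap for either gene in either assay. This pair was chosen after its values were seen.

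In other mitochondrial lists a minority of the members were lower. Over all genes, 20.1% were lower in RNA-Seq and 20.3% in Ribo-Seq. Of 34 import components, 7 (20.6%) were lower in RNA-Seq and 9 (26.5%) in Ribo-Seq, with medians of -0.10 and -0.04. TIM50, a receptor of the inner membrane, was lower at -1.61 and -2.46 and TIM44, the tether of the import motor, at -1.08 and -1.33, while TIM23, the channel, was at 0.01 and -0.05 and was not called. TIM17, its partner, rose in RNA-Seq by 0.54 and was at 0.06 in Ribo-Seq. Of 24 inner membrane carriers, 1 (4.17%) was lower in RNA-Seq and 4 (16.7%) in Ribo-Seq, PET9, the major ADP/ATP carrier, at -0.40 and -0.78. Of 75 mitochondrial ribosomal proteins, 6 (8%) were lower in RNA-Seq and 8 (10.7%) in Ribo-Seq. Among them were MRPL3, at -0.90 and -1.29, and RSM22, at -0.40 and -1.07. The medians of these ribosomal proteins were -0.07 and -0.20. Of 40 members of the respiratory chain and ATP synthase, none was higher, 1 (2.5%) and 9 (22.5%) were lower, and the medians were -0.13 and -0.23. When 1 library was left out, the number lower in the respiratory chain ranged from 1 to 12 in RNA-Seq and from 2 to 26 in Ribo-Seq, and among mitochondrial ribosomal proteins from 1 to 13 and from 3 to 13.

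Of the 13 proteins without a segment and of neither compartment that were lower in both assays, TGL3 changed most, at -1.16 in RNA-Seq (SE 0.19, edgeR adjusted p 1.2e-05) and -1.84 in Ribo-Seq (SE 0.33, edgeR adjusted p 0.00071). TGL3 is a lipase of lipid droplets, which were not counted as part of the secretory pathway here. TGL3 was followed by PPZ2 (-0.74 and -1.68), a protein phosphatase, and the PPZ2 paralog PPZ1 was also among the 13 (-0.41 and -1.09). HSP82, a heat-inducible Hsp90, stood at 389, 409 and 526 normalised CPM in RNA-Seq of batch 1 and at 321 and 198 in batch 4. The batches did not overlap, but replicate 3 of batch 4 was much lower than replicate 2, and HSP82 fell by 0.77 (SE 0.23, edgeR adjusted p 0.041).

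The naming rule for soluble proteins, largest mean change among 93 eligible genes that were lower in both assays, returned YNR021W, RNY1, TCB1, MID1, APE3, YBR096W, GTA1, TOM70, NDE1 and LCB1. Several of these enter the secretory pathway without a window over the hydropathy threshold. APE3, a vacuolar aminopeptidase, stood at 1270.3, 1193 and 1228 normalised CPM in RNA-Seq of batch 1 and at 211 and 191 in batch 4, and its changes were -2.61 and -2.97. TCB1, a tether between the ER and the plasma membrane, changed by -2.34 and -3.71. LCB1, a subunit of serine palmitoyltransferase in the ER, changed by -1.56 and -2.99. MID1, a calcium channel subunit, fell by 1.76 in RNA-Seq and kept 1 and 3 Ribo-Seq counts in batch 4, where RNY1, a ribonuclease of the secretory pathway, kept 1 in each library.

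The 10 soluble genes that were highest in batch 4 by the naming rule, among 171 eligible genes, were YVH1, ARG1, TRM11, DBP2, GUA1, DHR2, YTM1, IPI3, RMT2 and AAH1, with log2 changes from 0.52 to 0.95 over both assays. YTM1 (YOR272W, chromosome XV 832813 to 834195), a 60S subunit assembly factor, stood at 163, 181 and 142 normalised CPM in RNA-Seq of batch 1 and at 243 and 295 in batch 4, and at 161 and 131 against 190.2 and 275 in Ribo-Seq. YTM1 rose by 0.73 (SE 0.12, edgeR adjusted p 1.8e-05) and 0.68 (SE 0.17, edgeR adjusted p 0.0070). GUA1, the GMP synthase, stood at 715, 816 and 620.4 in RNA-Seq of batch 1 and at 1244 and 1410 in batch 4, and at 799 and 796 against 1144 and 1253 in Ribo-Seq. GUA1 rose by 0.89 (SE 0.12, edgeR adjusted p 1.3e-06) and 0.59 (SE 0.07, edgeR adjusted p 3.1e-05). The other genes include TRM11 (a tRNA guanosine methyltransferase subunit), RMT2 (an arginine methyltransferase), AAH1 (adenine deaminase) and YVH1 (a phosphatase that acts in 60S maturation). The 5 genes with a predicted segment that were highest in both assays, of 26 eligible, were ARX1, SYO1, NAN1, IRC7 and ADE6, each with a single internal segment. ARX1, SYO1 and NAN1 act in ribosome assembly and ADE6 in purine synthesis.

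Of 167 ribosome biogenesis factors, 101 were higher and 1 lower in RNA-Seq, and 84 were higher and none lower in Ribo-Seq. Their medians were 0.36 and 0.43, and 59 were higher in both. The shares over all tested genes were 11.3% higher in RNA-Seq, 11.6% in Ribo-Seq and 4.43% in both. They held 3.39% to 3.53% of the RNA-Seq counts in batch 1 and 3.88% and 4.48% in batch 4, and 2.7% and 2.49% of the Ribo-Seq counts against 3.14% and 3.88%. Replicate 3 of batch 4 held the largest share in both assays. Without it 19 members were higher in RNA-Seq, and without replicate 4 of batch 1 19 were higher in Ribo-Seq. With scaling on genes without a segment, 66 and 68 were higher. The DEAH helicase DHR2 rose by 0.57 and 0.87, the 60S export factor ARX1 by 0.74 and 1.06, and the nucleolar protein NSR1 by 0.97 in RNA-Seq, with 0.45 in Ribo-Seq not called. RNA polymerases I and III, which transcribe rRNA and tRNA, had 11 higher and 1 lower of 37 members in RNA-Seq and 8 higher in Ribo-Seq, but 0 higher in RNA-Seq without replicate 3 of batch 4 and 4 in Ribo-Seq without replicate 4 of batch 1. RPC82, a polymerase III subunit, rose by 0.42 and 0.83, and RPA190, the largest polymerase I subunit, by 0.69 in Ribo-Seq, with 0.24 in RNA-Seq not called.

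Promoters of the biogenesis genes among those named share the PAC motif, and 30 bases around the match nearest to the start codon are shown from the RefSeq R64 genome, read 5′ to 3′ toward the gene, with the match in capitals (GATGAG or its reverse complement CTCATC).
DBP2, chrXIV:413472-413501, plus strand: tttacgccgatgCTCATCgcagaaaatttt
DHR2, chrXI:288767-288796, plus strand: tcgatgagatgaGATGAGgttatgatatat
YTM1, chrXV:832700-832729, plus strand: gaaaggcatatgCTCATCtgtataattgca
ARX1, chrIV:657525-657554, minus strand: cagaagagatgaGATGAGctaaagcatcgt
SYO1, chrIV:340274-340303, minus strand: atctcatctcatCTCATCcatttatctacc
NAN1, chrXVI:310082-310111, plus strand: tcctagcgatgaGATGAGatgaaatttttc
IPI3 had 0 matches in its 250 bases before the start codon. On either strand of these 250 bases, GATGAG was present in 17.0% of 6007 promoters and in 83.8% of the 167 biogenesis promoters, in 89.8% of the 59 higher in both assays and 80.6% of the other 108. Among 139 other genes higher in both assays it was present in 41.0%. The RRPE motif, searched as AAAATTTT, was present in 8.66% of all promoters, 67.1% of the biogenesis promoters and 32.4% of the other genes higher in both, and the 2 motifs do not overlap in letters. A match is a description of the letters and not evidence of a bound factor.

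Many genes of the translation machinery were higher in RNA-Seq. As a reference for the counts below, 11.3% of all tested genes were higher in RNA-Seq and 11.6% in Ribo-Seq. Of 137 cytosolic ribosomal proteins, 54 were higher in RNA-Seq (median 0.28), and 23 were higher and 2 lower in Ribo-Seq (median 0.06). Many of these genes have near-identical copies, whose uniquely mapped counts are uncertain. The single-copy RPS3 rose by 0.36 and 0.37. Of 30 initiation factors, 16 were higher in RNA-Seq and 6 in Ribo-Seq, with CDC33, the cap-binding protein eIF4E, at 0.66 and 0.25. Of 15 elongation factors, 9 were higher in RNA-Seq and 6 in Ribo-Seq, with YEF3, the fungal factor eEF3, at 0.69 and 0.18. The joint fit called few of these genes for a difference between the assays, 2 higher and none lower among the ribosomal proteins, 1 each way among the initiation factors, and 2 lower among the elongation factors. The number higher in RNA-Seq ranged from 5 to 75 for ribosomal proteins and from 5 to 18 for initiation factors when 1 library was left out, and the number in Ribo-Seq from 6 to 32 and from 1 to 14.

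In amino acid biosynthesis 23 of 63 genes were higher and 5 lower in RNA-Seq, and 25 were higher and 6 lower in Ribo-Seq. Beside this and the next 2 lists, all tested genes were 11.3% higher and 20.1% lower in RNA-Seq, and 11.6% and 20.3% in Ribo-Seq. The 5 lower in both assays were LEU4, LEU9, ILV1, ARG7 and ARG56, and all encode mitochondrial enzymes. ILV1, the threonine deaminase, was at -1.48 and -1.96, ARG7, of ornithine synthesis, at -0.89 and -1.36, and ARG56, of the same pathway, at -0.50 and -1.09. The next enzyme group, in the cytosol, includes ARG1, the argininosuccinate synthetase, which rose by 0.83 in both assays at 13.9 to 47.2 normalised CPM, a call that DESeq2 did not make in Ribo-Seq. In purine and one-carbon metabolism, 13 of 31 genes were higher and 4 lower in RNA-Seq, and 14 were higher and 3 lower in Ribo-Seq. The lower ones were FCY2, the purine-cytosine permease, at -1.31 and -2.85, and SHM1, GCV1 and, in RNA-Seq, GCV2, which act in mitochondria. Of 31 glycolysis and fermentation genes, 12 were higher and 1 lower in RNA-Seq, and 9 were higher and 3 lower in Ribo-Seq, with PDC1, the pyruvate decarboxylase, at 0.50 and 0.38. TDH1, a minor glyceraldehyde-3-phosphate dehydrogenase, was lower at -0.57 and -0.78. Without 1 library, 3 to 19 glycolysis genes, 5 to 41 amino acid genes and 5 to 22 purine and one-carbon genes were higher in RNA-Seq, and 4 to 9, 7 to 27 and 4 to 17 in Ribo-Seq. The lowest number for the purine and one-carbon genes came without replicate 3 of batch 4 in RNA-Seq and without replicate 4 of batch 1 in Ribo-Seq.

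**Figure D4:**
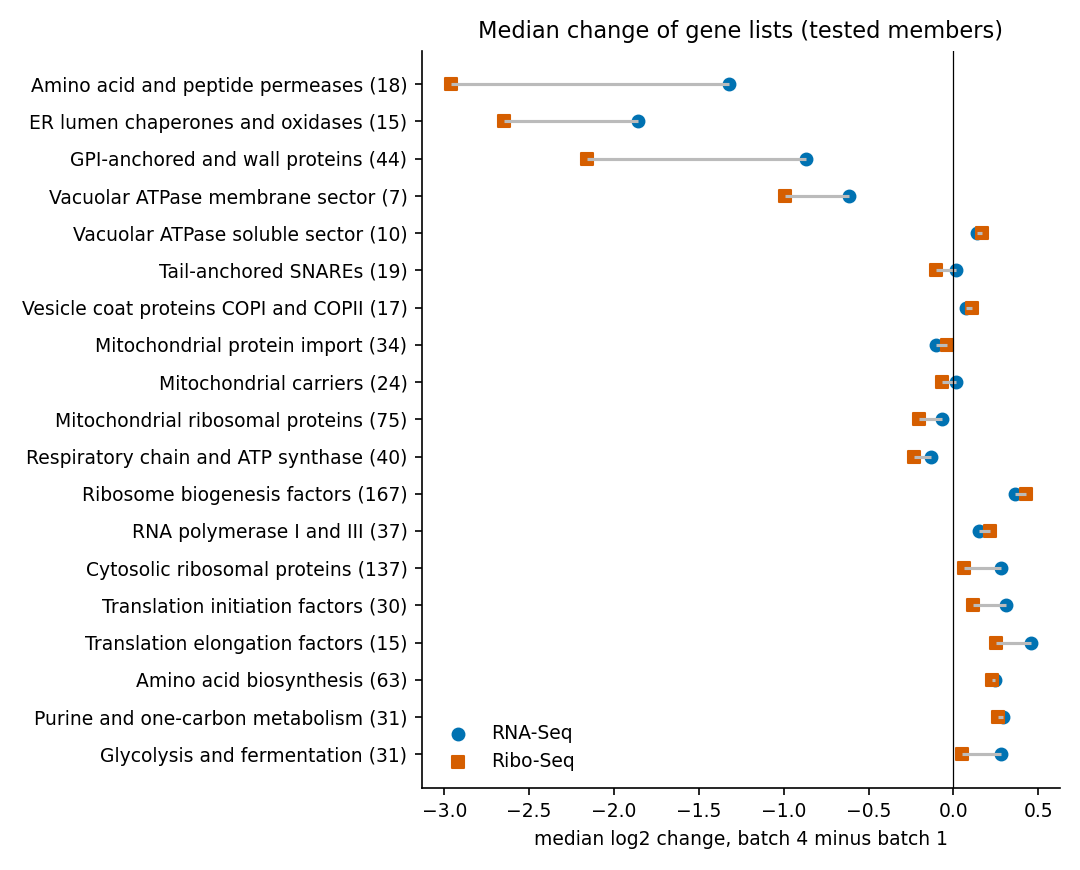
Median log2 change between batches of the tested members of 19 gene lists (number tested in parentheses), RNA-Seq as circles and Ribo-Seq as squares joined by a line. Permeases and ER lumen proteins lie furthest below 0 with Ribo-Seq below RNA-Seq, tail-anchored SNAREs and mitochondrial carriers lie near 0, and ribosome biogenesis factors lie above 0 in both assays.

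Over all tested genes, the higher shares were 11.3% (RNA-Seq) and 11.6% (Ribo-Seq), and the lower shares 20.1% and 20.3%. For histones, the spliceosome, mRNA decay factors and trehalose and glycogen metabolism, every share was smaller than these. Histones had 1 higher and 0 lower of 11 by RNA-Seq, and 0 and 2 (18.2%) by Ribo-Seq. The spliceosome had 3 and 1 of 61, then 2 and 0, and mRNA decay factors 3 and 2 of 38, then 3 and 2. Trehalose and glycogen metabolism had 1 and 2 of 15, then 0 and 1. Of 39 proteasome genes, 3 were higher and 2 lower by RNA-Seq. By Ribo-Seq 7 proteasome genes were higher, a larger share than over all tested genes, and 2 were lower. The cytosolic chaperones and heat shock proteins had 7 higher and 5 lower of 38 in RNA-Seq, and 3 and 7 in Ribo-Seq. SSB1, the ribosome-associated Hsp70, rose by 0.53 and 0.21 while HSP82 fell.

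The difference between the assays, the log2 change in Ribo-Seq minus that in RNA-Seq, was higher for 269 genes (6.01%) and lower for 334 (7.47%). Lower genes were largely those already described, with 146 of the 288 proteins with 4 or more segments, whose median difference was -1.13 against 0.09 over all genes. The higher share of these calls, 44.6%, was 18.3% to 23.6% under the 3 other scalings or tools, which moved the median difference by -0.13, so the number of higher calls depended on the scaling. The 5 genes with the most negative difference were YNL095C, COT1, MNT3, PEP1 and PDR15. PEP1, the sorting receptor for vacuolar hydrolases, stood at 249, 218 and 229 normalised CPM in RNA-Seq of batch 1 and at 66.8 and 58.2 in batch 4. In Ribo-Seq it stood at 208 and 204 against 4.42 and 5.22, and the difference was -3.37 (SE 0.29, edgeR adjusted p 3.1e-07). PEP1 was thus far apart between batches in both assays and more so in Ribo-Seq. The other 4 kept 0 to 5 Ribo-Seq counts per batch 4 library.

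Protein length moved with the difference between assays among proteins with no segment and in neither compartment. In 403 proteins of up to 200 residues the median difference was 0.09, in 253 of 801 to 1200 residues 0.35, and in 72 of over 1200 residues 0.50. In the longest group, the RNA-Seq median was -0.31 with 1 gene higher and 26 lower, the Ribo-Seq median was 0.05 with 16 higher and 6 lower, and 24 genes were called for a higher difference and none for a lower one. The RNA-Seq medians were 0.12 at 401 to 600 residues, 0.0069 at 601 to 800 and -0.10 at 801 to 1200, while the Ribo-Seq medians lay between 0.05 and 0.16 in all groups. RNA integrity was not measured in these files.

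**Figure D5:**
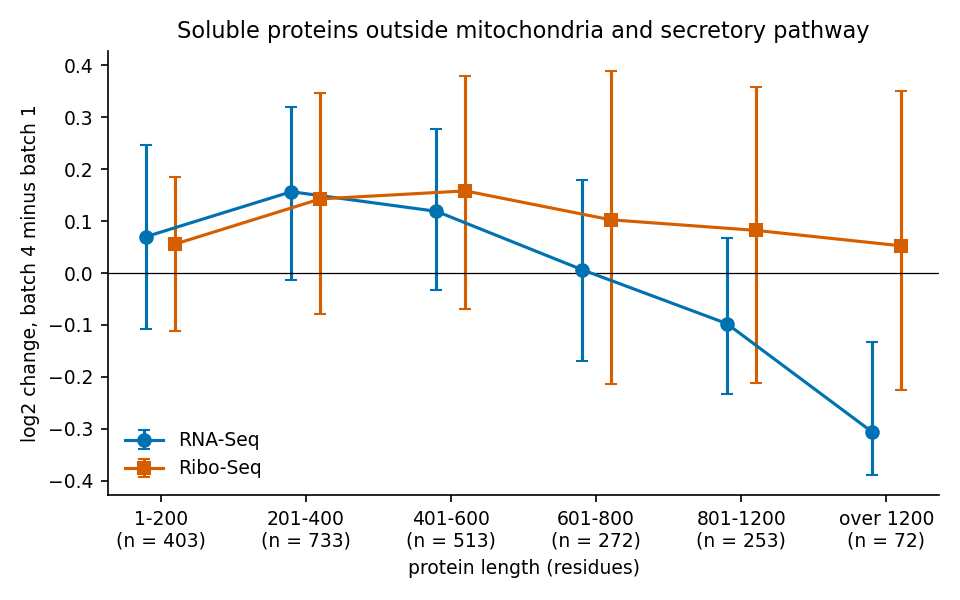
Median log2 change between batches by protein length for proteins with no predicted segment that RefSeq places in neither mitochondria nor the secretory pathway, with bars from the lower to the upper quartile of genes and the number of genes in parentheses. RNA-Seq medians fall to -0.31 in the longest group while Ribo-Seq medians stay between 0.05 and 0.16.

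The 31 genes called in opposite directions divided by length as well. The 17 that were higher in RNA-Seq and lower in Ribo-Seq encode proteins of 189 to 672 residues, and the 14 that were lower in RNA-Seq and higher in Ribo-Seq encode proteins of 957 to 3268 residues. In the first set NPL3, an mRNA-binding protein, stood at 105, 128 and 94.0 normalised CPM in RNA-Seq of batch 1 and at 211 and 214 in batch 4. In Ribo-Seq NPL3 stood at 724 and 831 against 593 and 609, and the difference was -1.19 (SE 0.19, edgeR adjusted p 0.00026). The batches did not overlap in either assay. In the second set IRA2, an inhibitor of Ras, stood at 158, 162 and 141 in RNA-Seq of batch 1 and at 102 and 105 in batch 4. In Ribo-Seq IRA2 stood at 30.7 and 32.9 against 47.9 and 57.4, and the difference was 1.44 (SE 0.21, edgeR adjusted p 0.00013). Again the batches did not overlap. The second set also holds TOM1, a ubiquitin ligase (-0.59 and 0.56), MON2 (-0.52 and 0.68) and POL2, the catalytic subunit of DNA polymerase epsilon (-0.56 and 0.42). TOM1 is 1 of the 22 proteins with 4 or more predicted segments that were not lower in both assays. Without Ribo-Seq replicate 4, 6 of the 31 genes were still called in opposite directions, and with DESeq2 9 were.

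CAF20, an eIF4E-binding protein that represses translation, was picked out after seeing its values, as the tested gene with the largest RNA-Seq rise. It stood at 124, 145 and 120 normalised CPM in RNA-Seq of batch 1 and at 298 and 332 in batch 4, and rose by 1.29 (SE 0.11, edgeR adjusted p 2.1e-10). In Ribo-Seq CAF20 stood at 380.2 and 388 against 361 and 374 and was not called, at -0.06 (SE 0.09), and its difference between assays was -1.20 (SE 0.17, edgeR adjusted p 9.4e-05). UTP10, a large component of the small ribosomal subunit processome, showed the reverse, with 0.09 in RNA-Seq, not called, and a rise of 1.14 in Ribo-Seq (SE 0.15, edgeR adjusted p 4.1e-05).

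The largest positive differences belonged to small nucleolar RNAs, which guide rRNA modification and are not translated. In Ribo-Seq snR4 stood at 69.5 and 50.8 normalised CPM in batch 1 and at 492 and 369 in batch 4, and rose by 2.83 (SE 0.17, edgeR adjusted p 3.0e-08). In RNA-Seq it stood at 4.90, 8.25 and 10.2 against 7.79 and 5.00 and overlapped. RNA-Seq was made from mRNA purified on oligo(dT), so missing RNA-Seq calls do not show that the levels of such RNAs were unchanged. snR33 and snR86 rose by 2.39 and 2.54 in Ribo-Seq. Of the 12 tested genes without a protein, 7 were higher and 1 lower in Ribo-Seq and none was called in RNA-Seq. The Ribo-Seq libraries of batch 4 also held the larger share of reads mapped to several places, and the part of either in the other results was not tested. The remaining named genes were PBI1, at a difference of 2.22, and TFB5, a subunit of transcription factor TFIIH encoded by a reading frame of 72 residues, at 1.93 with 2.87 to 15.5 normalised CPM in all libraries.

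The same pair of batches could be followed in libraries that the wt comparison did not use, 1 pub1Δ RNA-Seq library in batch 4 (replicate 4) and 1 in batch 1 (replicate 5), without a test. Their ratio had the sign of the wt change for 464 of the 504 genes higher in wt RNA-Seq (92.1%) and for 851 of the 899 lower ones (94.7%), against 73.8% of all tested genes. It had the same sign for 59 of the 61 mitochondrial genes, with a median of -0.64 against -0.89 in wt. For the 167 ribosome biogenesis factors it was 111 (66.5%), below the share over all tested genes, with a median of 0.11 against 0.36. All 17 and all 14 genes called in opposite directions kept their RNA-Seq sign. Across all strains, scaled together, KAR2 stood at 717.5 to 959 normalised CPM in the RNA-Seq libraries of batches 1 and 2 and at 64.8 to 137 in those of batches 3 and 4, without overlap. TOM70 and TUF1 divided in the same way. YTM1 did not, at 138.5 to 235.8 in batches 1 and 2 and 209 to 297.7 in batches 3 and 4. Batch 2 held only gir2Δ libraries and batch 3 only pub1Δ libraries, so strain and batch cannot be told apart there.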

How the data were processed

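The authors deposited raw counts per gene, the whole numbers of uniquely mapped reads on the gene-sense strand, without normalization. According to the study's methods and the submitters' processing notes, the authors first trimmed adapters (cutadapt 2.10). Duplicated Ribo-Seq reads were collapsed while the reads still carried their barcodes, and the barcodes were removed afterwards. Then the authors discarded rRNA reads (Bowtie2, given as 1.2.3), and mapped and counted reads with STAR 2.7.9a against Ensembl R64-1-1. Removing duplicates before counting can lower the counts of abundant short footprints, and unique mapping leaves near-identical genes uncertain. Every column of the table carried a sample label (0 columns without one).

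Counts were analysed in R 4.3.3. Genes needed 10 CPM in at least 4 libraries of each assay over the whole series, which left 4473. Each assay was fitted to its wt libraries alone with edgeR 4.0.16 (TMM factors, robust quasi-likelihood F-test), and the difference between assays as the interaction of assay and batch over all 9 wt libraries. Adjusted p-values (Benjamini-Hochberg) cover all tested genes, and genes were called under 0.05. Alternatives were DESeq2 1.42.0, other scaling factors, filters, strands and samples, a test against a 1.5-fold change (glmTreat), and leaving out each library. The fits were tested on simulated counts. Nothing in the labels says which replicates were separate biological cultures beyond their numbers, so p-values measure the spread between these libraries. The study's methods divide a lysate between both assays, but the sample titles name no lysate. Same-numbered wt libraries carry the same batch, while pub1Δ replicate 4 is batch 4 in RNA-Seq and batch 1 in Ribo-Seq. Deviations of same-numbered wt libraries from the group means correlated weakly over genes, at 0.12 (replicates 1 and 4) and 0.17 (replicates 2 and 3). Each group held 2 such libraries, whose deviations mirror each other, so each value holds for both replicates. The pairing by number is therefore an assumption, used only in the alternative fit with the replicate number as a block. No wt libraries were duplicates: pairs within a group differed by 2.12 to 9.59 times the counting noise (chi-square per degree of freedom).

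Gene names, coding sequences and compartments (GO terms in the records) came from the RefSeq R64 annotation, and compartments were added after the counts were seen. The members and lists were chosen with earlier results of these data known. Named genes were called in both assays with the same sign and no overlap between batches, ranked by the mean of both log2 changes: the 10 highest and 10 lowest without a predicted segment and on no membrane list, the 5 highest and 5 lowest others, and the 5 largest differences between assays in each direction. List members named were among those with the largest change, and others were chosen after their values were seen.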

Additional observations from a re-analysis of the deposited data

Results flagged for a closer look

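Genes whose RNA-Seq and Ribo-Seq changes were both called but had opposite signs, and whose difference between the assays was itself called in the joint edgeR fit, numbered 13 among the 17 higher in RNA-Seq and lower in Ribo-Seq. Among the 14 lower in RNA-Seq and higher in Ribo-Seq the number was 14. These sets are described in the report, with NPL3 and IRA2 as examples.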

How the results depend on the processing

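The named genes kept their direction in every one of 960 alternative values, and 66 lost their call, 28 of them in the test against a 1.5-fold change. These genes were picked for large called changes in the same libraries, so a kept direction was largely built in and is no support. A gene removed by a filter gave no value under that filter. Counts of higher calls were the least stable. In RNA-Seq, 504 higher genes became 304 with TMM factors from genes without a segment, 286 with 10 CPM required in wt libraries, 767 with all strains in the fit and 6 against a 1.5-fold change, and 119 to 743 without 1 library. The 899 lower genes became 508 with 10 CPM in wt libraries, 534 against a 1.5-fold change, and 680 to 1001 without 1 library. In Ribo-Seq, 519 higher genes became 254 with DESeq2, 342 with TMM factors from genes without a segment, 20 against a 1.5-fold change, and 107 to 695 without 1 library. The 907 lower genes became 502 with 10 CPM in wt libraries and 720 to 1038 without 1 library. For the difference between assays, 269 higher genes became 78 with DESeq2, 139 with median-of-ratios factors, 137 with TMM factors from genes without a segment, 131 with 10 CPM in wt libraries, 21 against a 1.5-fold change and 105 to 410 without 1 library. The 334 lower genes became 186 with 10 CPM in wt libraries, 152 against a 1.5-fold change and 224 to 470 without 1 library. With the replicate number as a block, 363 were higher and 358 lower, each within 1.5 times the number without it. The causes were not tested, except for the 10 CPM filter in wt libraries, which tested 3706 genes. It required 10 CPM in at least 4 wt libraries of each assay, and so in every wt Ribo-Seq library. Genes that fell below 10 CPM in Ribo-Seq of batch 4 were thereby removed. A loss of lower calls was thus built into this filter and does not measure how stable the fall was. DBP2 in Ribo-Seq lost its call under 7 settings that kept all wt libraries and without replicate 1 or replicate 4. Ribo-Seq has 2 libraries per batch, and genes with few Ribo-Seq counts in batch 4 have uncertain folds.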
